A study of Rattus norvegicus with 49 samples.

Results

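The sirtuins and the genes that make, spend and clear NAD were followed in the livers of rats that ate freely, were fasted overnight, or were held on less food. Of the 10 genes named, Sirt1 to Sirt7, Nampt, Parp1 and Nnmt, 9 were measured among 14217 genes; Sirt1 had no probe set under its symbol and was not analysed here. The measured set therefore holds 6 of the 7 sirtuins. A gene entered by its symbol, and its value is a log2 intensity, taken from whichever probe set carrying that symbol alone was brightest on average. Nampt and Sirt4 had 2 such probe sets and the other 7 genes had 1.

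Each of 49 male Sprague-Dawley rats, about 8 to 10 weeks old at the start, gave 1 liver array at day 4 or day 14. All received powdered feed. Group 1 ate ad libitum and was not fasted, and group 2, the control of the comparisons between diets, ate ad libitum and was fasted overnight. The food of group 3 was cut by 15%, that of group 4 by 30% and that of group 5 by 60%, again with a fast on the last night. There were 5 rats for each group and day, but 4 for group 1 at day 14. Replicate numbers here only name the rats of a group, in the order of their records. The sample labels leave group 1 unfasted, whereas the design text of the series has all animals fasted. The time of day of sampling is not given in the sources used here. The only label of a possible batch is the day, so day and an unlabelled batch cannot be told apart.

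NAD carries electrons in metabolism and is also consumed as a substrate. Sirtuins use it to remove acyl groups from proteins, PARP enzymes use it to attach ADP-ribose, and both release nicotinamide. Nampt is the rate-limiting enzyme that returns nicotinamide to NAD by way of nicotinamide mononucleotide, while Nnmt methylates nicotinamide with the methyl donor S-adenosylmethionine and so removes it. The liver can also build NAD from tryptophan through the kynurenine pathway, and Nampt is a known target of the circadian clock.

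The RNA came from liver by the labels, or hepatocytes by the methods, and all 8 hepatocyte markers measured were bright. Summed intensities of that list lay between 145614 and 165472 over all rats. Markers of other liver cells were measured too, with S100a8, Cd5, Lum and Plin1 dim, that is, below log2 4.68. In bulk tissue, fewer cells of a type and less RNA per cell cannot be told apart. Sample medians lay between 6.34 and 6.43, and no array was a copy of another. The 9 members were all above the dim level, with means over all rats from 6.88 for Sirt4 to 11.24 for Nnmt. Intensities depend on the probes and do not rank the mRNA of different genes. Except where stated, the tests are limma fits over the 14217 genes with Benjamini-Hochberg adjustment, and a call means an adjusted p under 0.1. Precision is limited by how few rats there are in a group.

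Nampt moved the most of the 9 genes. At day 14 it was higher in all 15 diet-restricted rats than in any fasted control, and at day 4 it was lower in all 5 fed rats than in any fasted control. Nnmt rose in group 5 at day 14. The sirtuins and Parp1 differed from the fasted control by at most 0.42 on the log2 scale, and in these comparisons Sirt2 and Sirt5 passed the test, in the fed rats of day 4 alone.

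**Figure D1:**
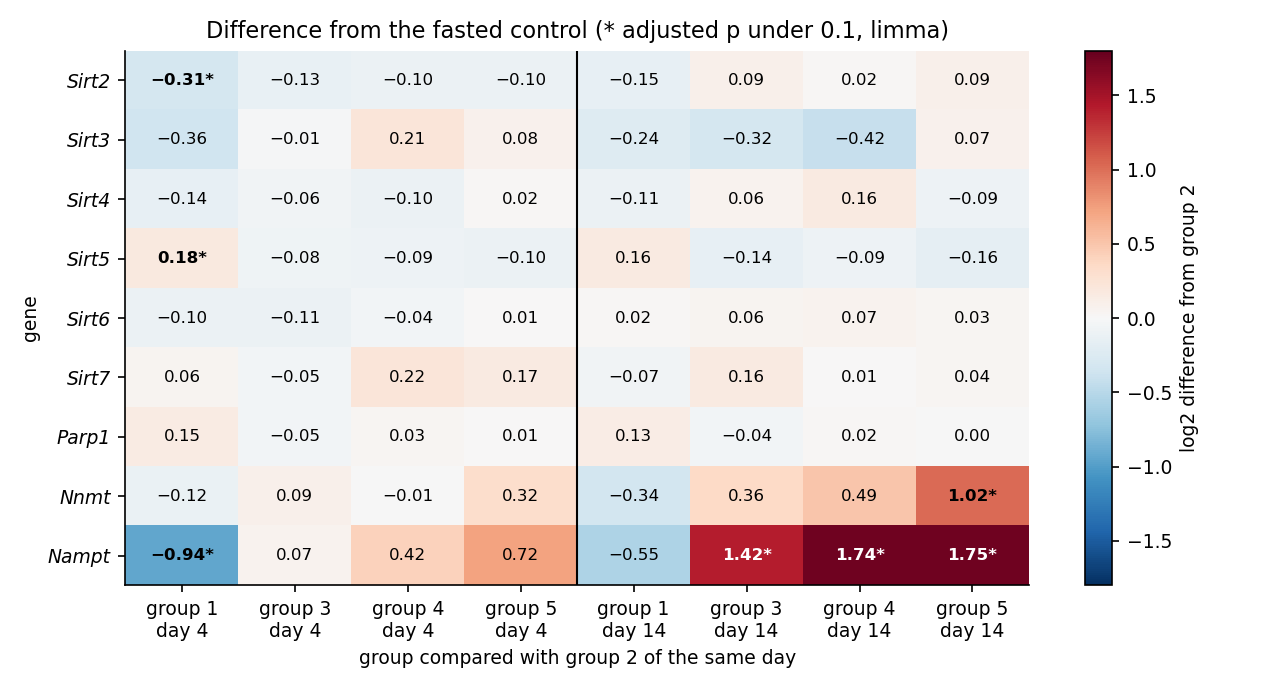
Log2 difference of each of the 9 genes (rows) from group 2 of the same day, for groups 1, 3, 4 and 5 at day 4 (left of the line) and day 14 (right). Red is higher and blue lower than the fasted control, and an asterisk marks an adjusted p under 0.1 by limma. The called cells are Sirt2, Sirt5 and Nampt in group 1 at day 4, Nampt in groups 3, 4 and 5 at day 14, and Nnmt in group 5 at day 14.

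The fed state was compared with the overnight fast first. At day 4, 3 of the 9 members were called in group 1 against group 2, Sirt2 and Nampt lower and Sirt5 higher in the fed rats. The background was high, since 21.3% of all genes were called in this comparison. At day 14, limma called none of the 9 members, 2 of which (Sirt2 and Nnmt) had an unadjusted p under 0.05, while 13.2% of all genes were called. The difference between the days of the fed against fasted comparison was tested too. None of the 9 members was called by limma there, with 1 (Sirt2) at an unadjusted p under 0.05, and of all genes 0% were called.

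In the fed rats of day 4, Nampt had log2 levels of 8.77, 8.97, 9.07, 9.22 and 9.30. In the fasted controls of that day the levels were 9.36, 9.82, 10.15, 10.24 and 10.43. The groups did not overlap, although the highest fed rat and the lowest fasted rat lay close together. The difference, fed minus fasted, was −0.94 (SE 0.18, adjusted p = 0.00511 by limma), a ratio of 0.523. At day 14 the 4 fed rats stood at 8.98, 9.04, 9.07 and 9.23, nearly the same place as at day 4. The fasted controls of day 14 were spread from 8.71 through 9.46, 9.53 and 9.94 to 10.53, so that 1 control lay below every fed rat. The difference at day 14 was −0.55 (SE 0.28, adjusted p = 0.274). Without group 2 day 14 replicate 3, the lowest control, it was −0.79 with an adjusted p of 0.0474. Over all fits without 1 rat the difference ran from −0.79 to −0.33, with adjusted p by limma from 0.0474 to 0.427.

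Sirt2, a mainly cytosolic deacetylase that acts on tubulin among other proteins, was the most uniform of the members between rats, with a pooled SD within groups of 0.074, lower than in all but 3.1% of genes. At day 4 the fed rats had log2 levels of 9.22, 9.28, 9.29, 9.34 and 9.40. The fasted controls had 9.58, 9.60, 9.60, 9.65 and 9.68. All fed rats were below all fasted rats, by −0.31 in the mean (SE 0.05, adjusted p = 0.00223). At day 14 the difference was −0.15 (SE 0.06, adjusted p = 0.192) with overlapping groups.

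Sirt5, a mitochondrial enzyme that removes succinyl, malonyl and glutaryl groups, went the other way. The fed rats of day 4 had 8.75, 8.95, 8.97, 8.99 and 9.06, and the fasted controls had 8.72, 8.74, 8.74, 8.77 and 8.86. Of the fed rats, 4 of 5 were above every control. The difference was 0.18 (SE 0.06, adjusted p = 0.0876), a call that was lost when all 10 group and day means were fitted together (adjusted p = 0.259) and in 8 of the 10 fits that left out 1 rat. At day 14 the difference was 0.16 (SE 0.12, adjusted p = 0.489).

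In group 1 at day 4, 4 of 10 markers of stellate cells and fibroblasts were called higher, beside 21.3% of all genes called in either direction. Their summed intensity ran from 3882 to 6301 in the fed rats and from 2396 to 3821 in the fasted controls. The hepatocyte sum was 145614 to 152795 in the fed rats and 151143 to 156296 in the fasted controls. The endothelial sum was 4270 to 5202 and 4605 to 5493. The part of these in the results on Sirt2, Sirt5 and Nampt was not tested.

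The remaining members did not pass the test in the fed rats. Parp1, the main enzyme that adds ADP-ribose chains at DNA breaks, differed by 0.15 at day 4 (SE 0.06, adjusted p = 0.12) and 0.13 at day 14 (SE 0.08, adjusted p = 0.384). Its call at day 4 depended on the fit, with an adjusted p of 0.0669 when all group and day means were fitted together and 0.0481 after a second quantile normalization. Sirt3, the main mitochondrial deacetylase, was −0.36 at day 4 (SE 0.16, adjusted p = 0.16) and −0.24 at day 14 (SE 0.11, adjusted p = 0.244). Fits without 1 rat gave −0.48 to −0.28 at day 4, with adjusted p by limma from 0.0384 to 0.299. The value of −0.48 (adjusted p = 0.0384) was that without group 1 day 4 replicate 3.

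Diet restriction was compared with the fasted control at each day. At day 4, limma called none of the 9 members in group 3, 4 or 5, where 0.253%, 5.43% and 7.14% of all genes were called. At an unadjusted p under 0.05 there was 1 member in group 3 (Sirt2, with a difference of −0.13 and an adjusted p of 0.422) and 0 in groups 4 and 5. At day 14 the members called were 1 in group 3, 1 in group 4 and 2 in group 5, against 6.54%, 12.8% and 19.8% of all genes. These comparisons share the rats of group 2, so their values are given side by side and were not set against each other as separate evidence.

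Nampt at day 14 had levels of 10.60, 10.98, 11.12, 11.12 and 11.45 in group 3. In group 4 the levels were 10.98, 11.38, 11.39, 11.47 and 11.67. In group 5 they were 10.96, 11.24, 11.37, 11.58 and 11.76. Every one of these rats was above the highest fasted control of that day, 10.53. The mean rose by 1.42 in group 3 (SE 0.27, adjusted p = 0.0113), by 1.74 in group 4 (SE 0.27, adjusted p = 0.00223) and by 1.75 in group 5 (SE 0.27, adjusted p = 0.0013). As ratios these are 2.68, 3.35 and 3.36. The other probe set of Nampt gave rises of 1.29, 1.66 and 1.67, with adjusted p of 0.00868, 0.000961 and 0.000777.

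At day 4 the same gene was scattered. Group 3 had 9.74, 9.90, 10.03, 10.09 and 10.58, within the range of the controls except for the highest rat. Group 4 ran from 9.44, 9.75 and 10.34 to 10.85 and 11.72. Group 5 had 9.78 and 9.93 but also 10.96, 11.35 and 11.59. Thus 3 of 5 rats in group 5 and 2 of 5 in group 4 were above all controls, while the others lay within the control range. Group 4 had an SD of 0.91 at day 4 and 0.25 at day 14, and group 5 had 0.82 and 0.31. The differences from group 2 were 0.07 in group 3 (SE 0.20, adjusted p = 0.947), 0.42 in group 4 (SE 0.37, adjusted p = 0.651) and 0.72 in group 5 (SE 0.35, adjusted p = 0.312).

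**Figure D2:**
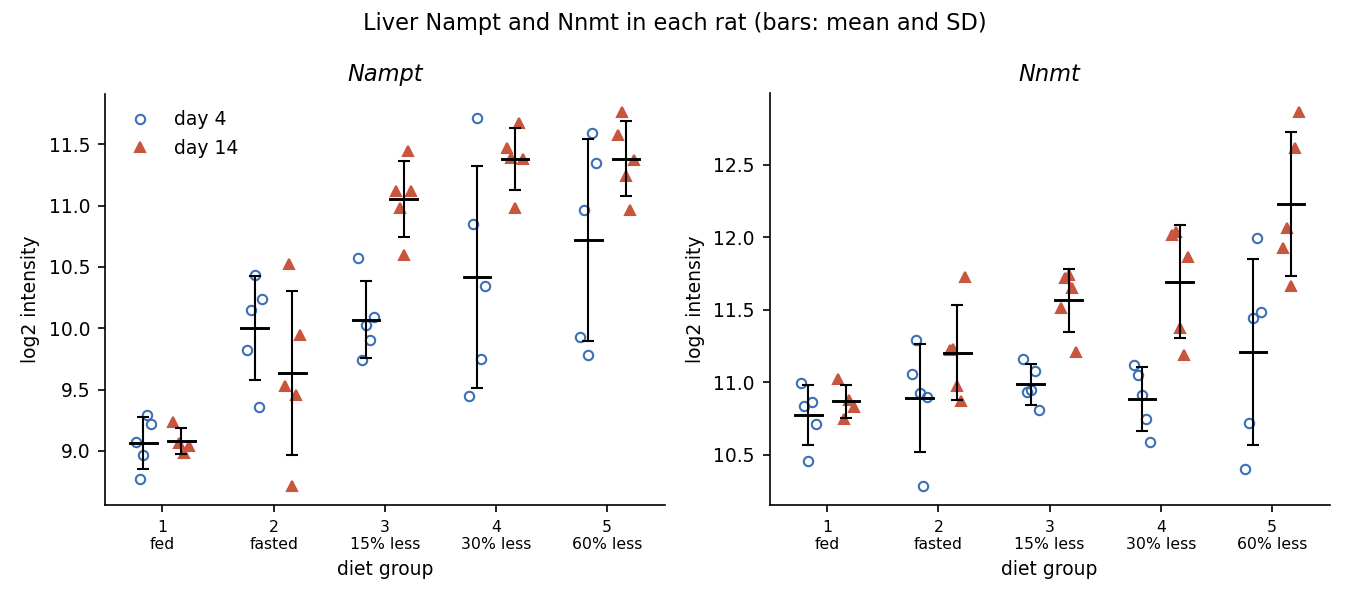
Log2 intensity of Nampt (left) and Nnmt (right) in each rat by diet group, with open circles for day 4 and filled triangles for day 14; bars give the mean and SD. Nampt at day 14 lies above 10.53, the highest fasted control, in every rat of groups 3, 4 and 5, and Nnmt at day 14 has its highest mean, 12.23, in group 5.

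Nnmt was higher in group 5 at day 14, where the rats had 11.66, 11.93, 12.07, 12.62 and 12.86. The fasted controls had 10.87, 10.97, 11.22, 11.23 and 11.72. All group 5 rats but the lowest were above the highest control. The rise was 1.02 (SE 0.22, adjusted p = 0.00929), a ratio of 2.04. In group 4 the rats had 11.18, 11.37, 11.86, 12.01 and 12.04, a difference of 0.49 (SE 0.19, adjusted p = 0.152). In group 3 they had 11.21, 11.51, 11.65, 11.72 and 11.74, a difference of 0.36 (SE 0.15, adjusted p = 0.245). Without group 2 day 14 replicate 5 both passed the test, with differences of 0.62 (adjusted p = 0.0614) and 0.49 (adjusted p = 0.0478). The group 4 difference also passed without group 4 day 14 replicate 4, at 0.62 (adjusted p = 0.0732). Other fits without 1 rat lowered both. Over all of them the group 4 difference ran from 0.41 to 0.62, with adjusted p by limma from 0.0614 to 0.295. The group 3 difference ran from 0.28 to 0.49, with adjusted p from 0.0478 to 0.415.

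At day 4 the Nnmt levels of group 5 were 10.40, 10.72, 11.44, 11.48 and 11.99, and the controls of that day had 10.28, 10.90, 10.93, 11.06 and 11.29. Of the group 5 rats, 3 of 5 were above every control and the others lay within the control range. The difference was 0.32 (SE 0.28, adjusted p = 0.622), and groups 3 and 4 differed by 0.09 and −0.01.

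The log2 level was fitted as a straight line on the percentage of food taken away, over groups 2, 3, 4 and 5, at each day. At day 14 it called 2 of 9 members, Nampt and Nnmt, both higher with less food, while 24.0% of all genes were called. For each 10 percentage points less food, Nampt was higher by 0.25 (SE 0.06, adjusted p = 0.00349) and Nnmt by 0.16 (SE 0.03, adjusted p = 0.00129). Over groups 3 to 5 alone, an alternative added after the data had been seen, the slope of Nampt was 0.06 (SE 0.04, adjusted p = 0.344) and that of Nnmt 0.15 (SE 0.05, adjusted p = 0.0535). The Nampt call was thus lost among the restricted rats alone, and the Nnmt call held. At day 4 limma called no member in the trend, with 2 (Sirt7 and Nampt) at an unadjusted p under 0.05, and 8.82% of all genes were called.

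The levels at day 14 were also set against those at day 4 within each group. In group 3, 4 of 9 members were called, all higher at day 14, and 12.8% of all genes were. In group 4 and in group 5, Nnmt was the 1 member called, against 5.47% and 6.71% of all genes. Neither control group had a member called by limma. In group 1 there were 2 members (Sirt2 and Sirt3) at an unadjusted p under 0.05 and in group 2 there were 0, with 0% and 0.00703% of all genes called.

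In group 3, Nampt rose between the days by 0.99 (SE 0.17, adjusted p = 0.00871) and Nnmt by 0.58 (SE 0.10, adjusted p = 0.0106), with no overlap of the days for either. Sirt7, a nucleolar and nuclear deacetylase, had 8.75, 8.87, 8.94, 9.02 and 9.06 at day 4. At day 14 it had 9.19, 9.30, 9.32, 9.32 and 9.38. Every rat of day 14 was above every rat of day 4, with a rise of 0.37 (SE 0.07, adjusted p = 0.0112). Against group 2 at day 14, however, Sirt7 in group 3 differed by 0.16 (SE 0.07, adjusted p = 0.232). Between the days, Sirt7 differed by 0.16 in group 2 (SE 0.08, adjusted p = 0.61), by −0.06 in group 4 and by 0.03 in group 5, none of them called. Sirt2 rose in group 3 by 0.22 (SE 0.07, adjusted p = 0.0724), which was lost after a second quantile normalization (0.15, adjusted p = 0.256) and in 6 of the 10 fits without 1 rat. Nampt differed by 0.96 between the days in group 4 (SE 0.35, adjusted p = 0.177), and by 1.28 (adjusted p = 0.0248) without group 4 day 4 replicate 3. Over all fits without 1 rat this difference ran from 0.71 to 1.28, with adjusted p by limma from 0.0248 to 0.349.

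Nnmt rose between the days in group 4 by 0.81 (SE 0.17, adjusted p = 0.0321), with no overlap, and in group 5 by 1.02 (SE 0.30, adjusted p = 0.0921). The call in group 5 was lost in 8 of the 10 fits without 1 rat, and with 50 added before log2 (adjusted p = 0.109 by limma). In group 2, Nnmt differed between the days by 0.31 (SE 0.19, adjusted p = 0.678). Whether the difference from group 2 itself changed between the days was tested by an interaction. No member was called by limma in groups 3, 4 or 5, where 0.591%, 0.134% and 2.04% of all genes were called. At an unadjusted p under 0.05 there were 2 members in group 3 (Sirt2 and Nampt), 3 in group 4 (Sirt3, Sirt4 and Nampt) and 2 in group 5 (Sirt2 and Nampt). For Nampt the interaction was 1.35 in group 3 (SE 0.37, adjusted p = 0.137), 1.33 in group 4 (SE 0.50, adjusted p = 0.351) and 1.03 in group 5 (SE 0.48, adjusted p = 0.374). For Nnmt it was 0.27, 0.50 and 0.71, with adjusted p of 0.804, 0.583 and 0.473. For Sirt7 in group 3 it was 0.21 (SE 0.10, adjusted p = 0.509).

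The sirtuins and Parp1 varied less between groups and days than Nampt and Nnmt. No sirtuin, and not Parp1, was called in group 3, 4 or 5 against group 2 at either day. In those comparisons 0.253% to 19.8% of all genes were called, so with so few genes the lack of a call does not set them apart. Sirt6, a nuclear enzyme tied to DNA repair and glucose metabolism, had 10 group and day means that spanned 0.14, less than in all but 3.8% of genes. Parp1 spanned 0.26 and Sirt4, a mitochondrial ADP-ribosyltransferase and lipoamidase, 0.27, wider than in 39.0% and 43.0% of genes. The means of Sirt5 spanned 0.35, those of Sirt7 0.37, those of Sirt2 0.41 and those of Sirt3 0.68. These were wider than in 59.6%, 63.6%, 68.4% and 87.4% of genes. The means of Nampt spanned 2.32 and those of Nnmt 1.46, wider than in 99.3% and 97.4% of genes. Both genes also differed much between rats of a group, with pooled SDs of 0.51 and 0.35 that exceeded 98.5% and 96.1% of genes.

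**Figure D3:**
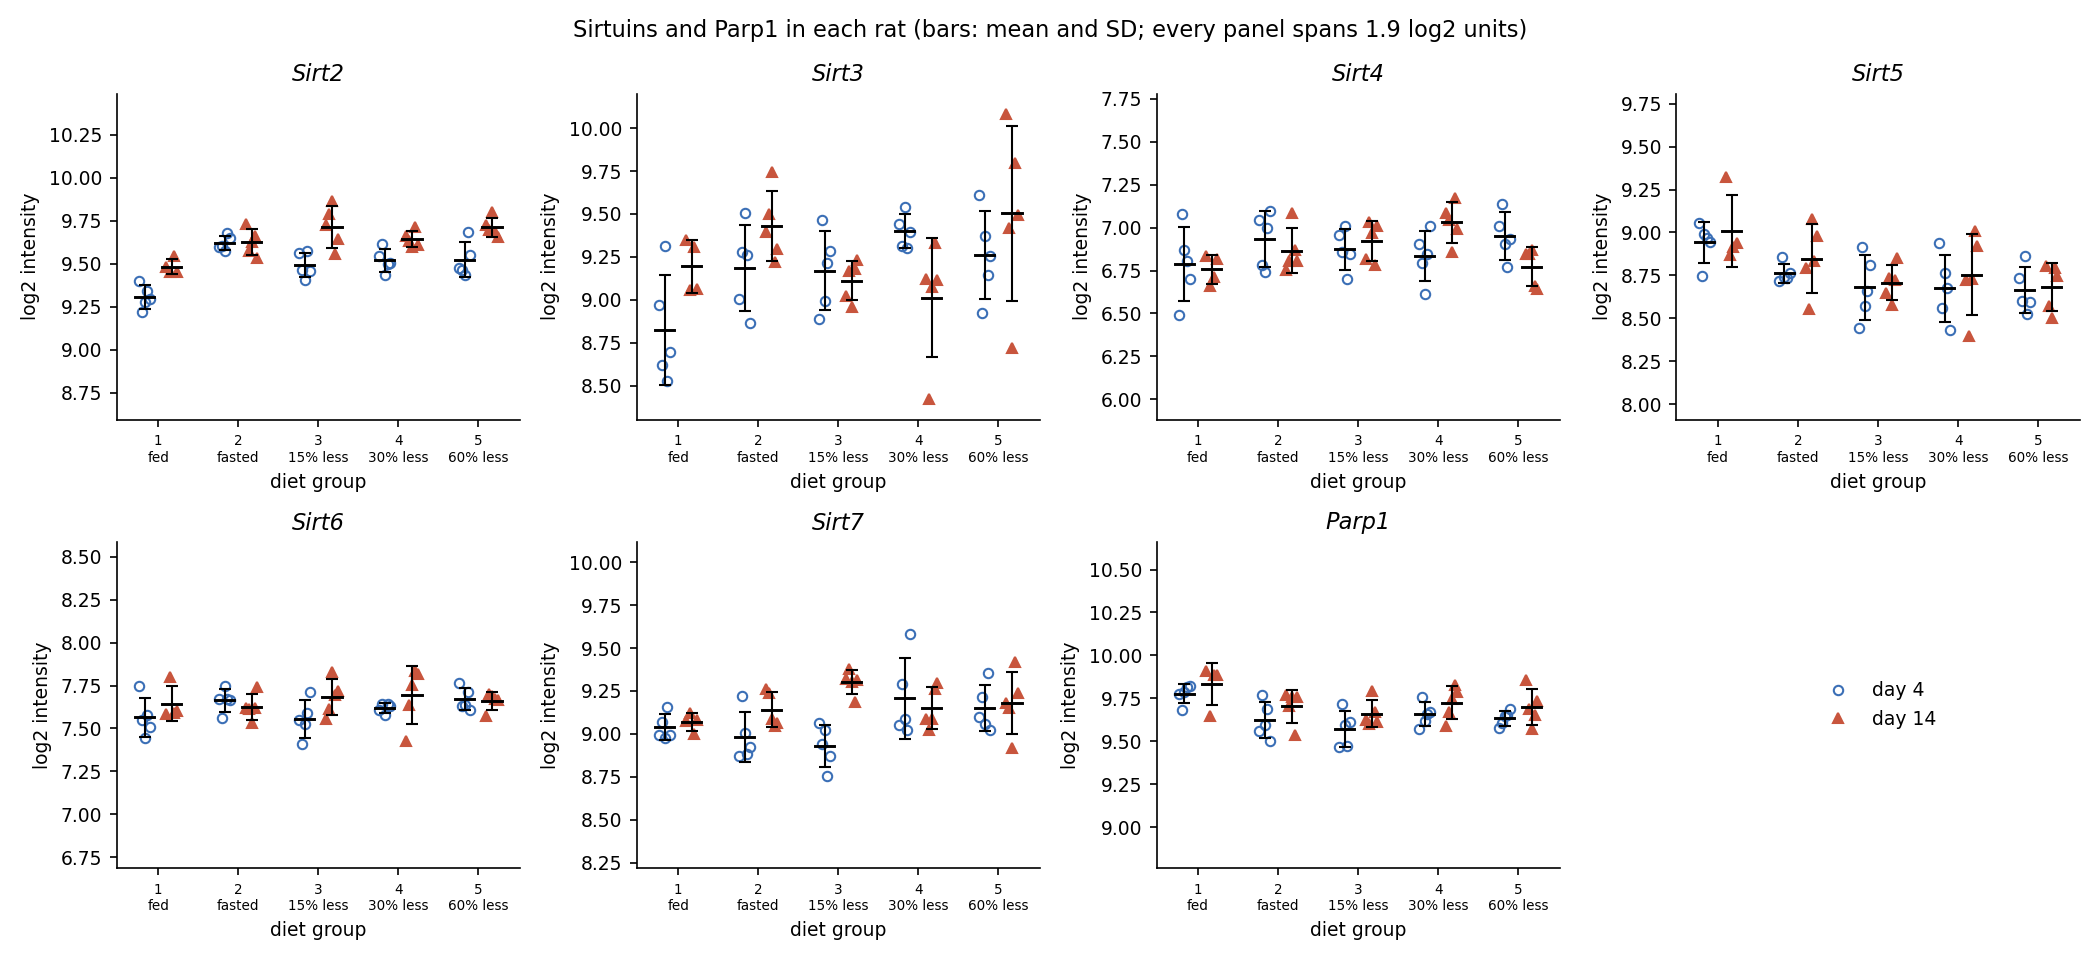
Log2 intensity of the 6 measured sirtuins and Parp1 in each rat by diet group, with open circles for day 4 and filled triangles for day 14; bars give the mean and SD, and every panel spans the same number of log2 units. Sirt2 at day 4 is lower in the fed rats (9.22 to 9.40) than in the fasted rats (9.58 to 9.68), and Sirt3 has its widest scatter, an SD of 0.51, in group 5 at day 14.

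Sirt3 differed most between rats among the sirtuins, with a pooled SD of 0.28 that exceeded 92.6% of genes. At day 14 its level was 8.96 to 9.23 in group 3 and 9.22 to 9.75 in group 2, a difference of −0.32 (SE 0.10, adjusted p = 0.103). This value sat at the threshold and was called under 6 of 8 other fits, among them a second quantile normalization (adjusted p = 0.0621). In group 4 the range was 8.42 to 9.33, with a difference of −0.42 (SE 0.15, adjusted p = 0.129). Fits without 1 rat moved this difference both ways, from −0.50 to −0.27, with adjusted p by limma from 0.0941 to 0.247. The difference passed without group 4 day 14 replicate 4 (−0.50, adjusted p = 0.0941). In group 5 the rats ran from 8.72 to 10.08 and the mean differed from the control by 0.07 (SE 0.21, adjusted p = 0.879). Of the 15 restricted rats of day 14, 9 were below and 2 above all fasted controls.

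Sirt4 depended on the probe set. With the brighter one it differed by 0.16 in group 4 at day 14 (SE 0.08, adjusted p = 0.266). With the other, whose mean is below the dim level, the difference was 0.48 (SE 0.14, adjusted p = 0.0622). Sirt5 in groups 3, 4 and 5 had differences between −0.16 and −0.08 at the 2 days, and none was called.

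Over the 10 groups and days, Nampt was highest in groups 5, 4 and 3 at day 14 (means 11.38, 11.38 and 11.05). Groups 5, 4, 3 and 2 at day 4 followed (10.72, 10.42, 10.07 and 10.00), then group 2 at day 14 (9.63) and group 1 at both days (9.08 and 9.06). Nnmt ran from group 5 at day 14 (12.23) through groups 4 and 3 of that day (11.69 and 11.57) to group 1 at day 4 (10.77). Steps between neighbours in the order of Nampt were smaller than the larger of the SDs of both groups, except from group 4 to group 3 at day 14 (0.33 against an SD of 0.31). In the order of Nnmt the exception was the step from group 5 to group 4 at day 14 (0.53 against 0.50). Neighbours were compared by exact permutation tests, adjusted over the 81 neighbour pairs of the 9 genes. The orders are a description, since so few rats could not bring a single step past the threshold over these pairs.

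The promoters of the 3 sirtuins that were called in any comparison are shown for the bases that lie before their transcription starts. The sequences are those of RefSeq on build GRCr8, read in the direction of transcription over 250 bases, with CpG dinucleotides in capitals. Sirt2 lies on the plus strand at chr1:93181222-93181471, Sirt5 on the minus strand at chr17:21543057-21543306 and Sirt7 on the minus strand at chr10:106401499-106401748.
Sirt2: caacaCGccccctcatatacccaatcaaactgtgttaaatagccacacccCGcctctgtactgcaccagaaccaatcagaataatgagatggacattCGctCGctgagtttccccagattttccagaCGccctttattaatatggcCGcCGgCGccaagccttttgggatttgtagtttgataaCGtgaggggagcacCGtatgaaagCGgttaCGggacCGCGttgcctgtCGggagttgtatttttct
Sirt5: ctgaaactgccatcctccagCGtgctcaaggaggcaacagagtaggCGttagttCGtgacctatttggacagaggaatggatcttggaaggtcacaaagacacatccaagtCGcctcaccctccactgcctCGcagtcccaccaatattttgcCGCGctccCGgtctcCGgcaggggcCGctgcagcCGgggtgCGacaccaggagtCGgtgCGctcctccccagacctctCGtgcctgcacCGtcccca
Sirt7: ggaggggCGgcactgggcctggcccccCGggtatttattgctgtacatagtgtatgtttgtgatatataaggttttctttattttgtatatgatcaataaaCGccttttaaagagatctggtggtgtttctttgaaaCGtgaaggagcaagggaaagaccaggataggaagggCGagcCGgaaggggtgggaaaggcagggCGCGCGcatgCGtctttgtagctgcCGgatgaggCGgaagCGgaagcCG
The windows hold 15, 16 and 14 CpG, where the median over all promoters in the table is 5. This is not particular to the called sirtuins. Over 300 bases, with 50 after the start, Sirt2, Sirt5 and Sirt7 held 19, 20 and 20 CpG. Sirt3, Sirt4 and Parp1, which were not called, held 20, 23 and 37, and the unmeasured Sirt1 held 47. The median of all promoters over 300 bases was 7. Of the 10 named genes, 7 had a promoter in the table. The window from 250 bases before to 50 after the start was searched on both strands for the E-box CACGTG, the FoxO core GTAAACA and the cAMP response element TGACGTCA, none of which contains another. These letters occur in 6.42%, 3.78% and 1.83% of all 33469 promoters. Among the 7, the E-box was found in that of Sirt1 and no motif in those of Sirt2, Sirt3, Sirt4, Sirt5, Sirt7 and Parp1. Such a match describes the letters in this window.

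Other genes of NAD metabolism were read from lists written from general knowledge. Of 17 measured genes of NAD synthesis and salvage beside Nampt, 5 were higher and 4 lower in group 5 than in group 2 at day 14, where 19.8% of all genes were called in either direction. The counts were 2 and 3 in group 3 (6.54% of all genes) and 3 and 3 in group 4 (12.8%). Kynu (kynureninase, an enzyme of the path from tryptophan) had the largest change. It fell by 1.70 in group 3 (SE 0.14, adjusted p = 5.8e-05), fell by 2.17 in group 4 (SE 0.19, adjusted p = 6.05e-05) and fell by 2.48 in group 5 (SE 0.12, adjusted p = 3.57e-07). Its groups did not overlap with the control. At day 4 it had already fallen by 0.87 in group 4 (adjusted p = 0.014) and by 1.25 in group 5 (adjusted p = 0.0126). The interaction with the day was called in all 3 restricted groups, at −1.31, −1.30 and −1.22 (adjusted p = 0.00907, 0.0802 and 0.0468).

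Nmrk1, a kinase that starts NAD synthesis from nicotinamide riboside, rose at day 14 by 1.45 in group 3 (SE 0.17, adjusted p = 0.000547), 1.42 in group 4 (SE 0.17, adjusted p = 0.000469) and 0.99 in group 5 (SE 0.22, adjusted p = 0.0103). At day 4 Nmrk1 rose by 0.95 in group 4 (adjusted p = 0.0439) and 0.70 in group 5 (adjusted p = 0.0943). Acmsd, which diverts an intermediate of the kynurenine path away from NAD, was higher by 1.24 in group 5 at day 14 (SE 0.33, adjusted p = 0.0255). In group 3 it differed by −0.40 (adjusted p = 0.621) and in group 4 by 0.03 (adjusted p = 0.974). Afmid, which makes kynurenine, was called higher in group 4 and group 5 at both days, and its largest difference, 1.30, was in the fed rats of day 4 (SE 0.17, adjusted p = 0.000567).

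**Figure D4:**
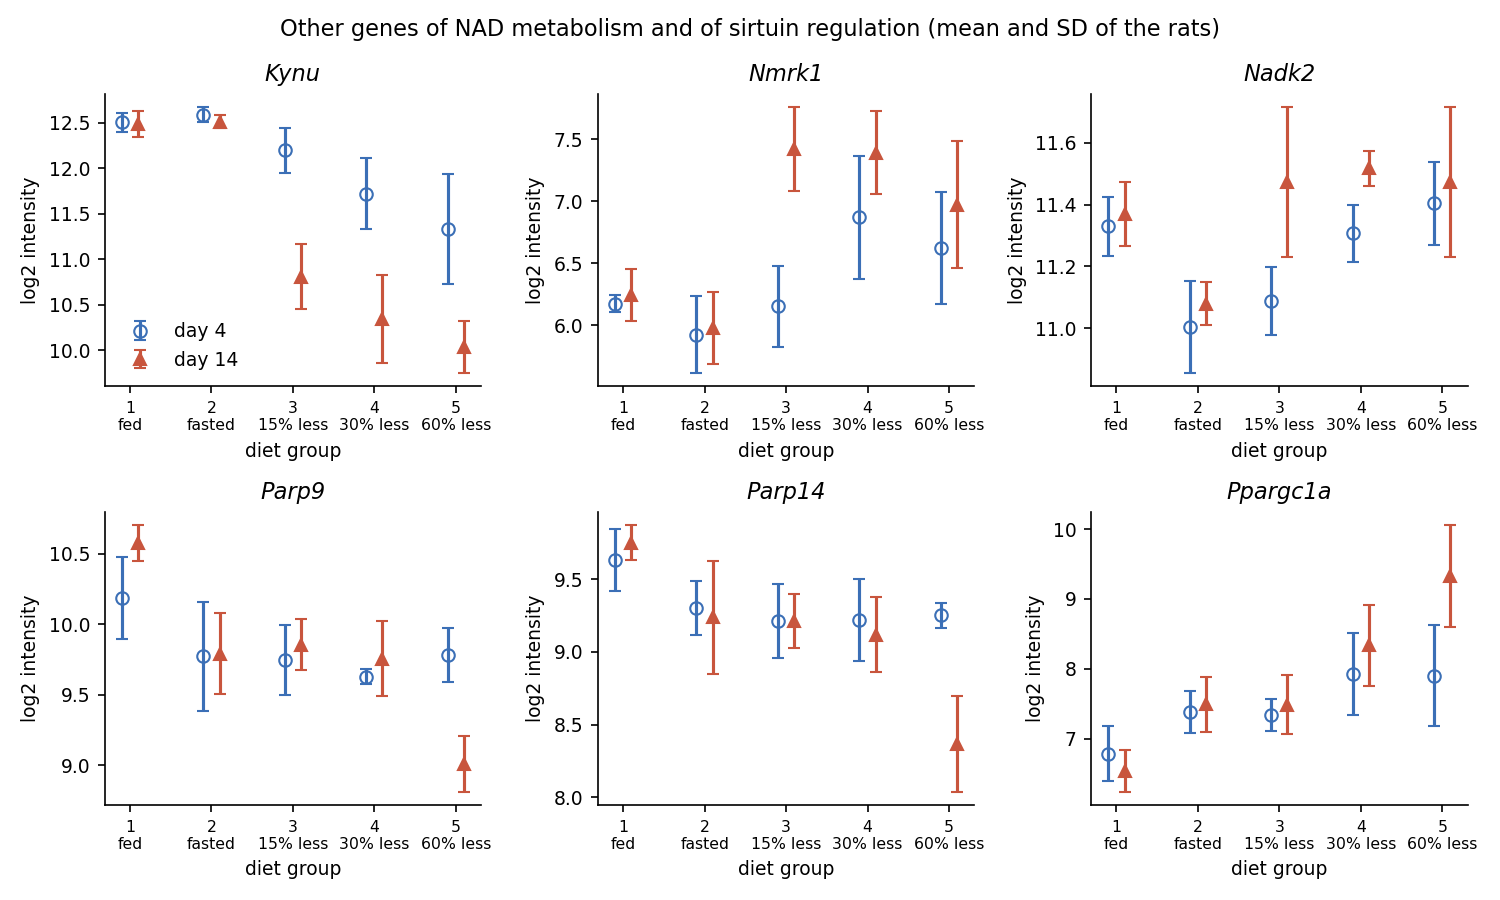
Mean and SD of the log2 intensity of 6 other genes by diet group, at day 4 (open circles) and day 14 (filled triangles). Kynu is lowest and Ppargc1a highest in group 5 at day 14, Nmrk1 and Nadk2 are higher in groups 3, 4 and 5 than in group 2 at day 14, and Parp9 and Parp14 are lower in group 5 at day 14.

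Among 7 genes of NAD and NADP handling, Nadk2 (mitochondrial NAD kinase) was called higher in 7 of the 8 comparisons with group 2, that is, in all but group 3 at day 4. The comparisons of a day share the rats of group 2, so these calls are not separate evidence. Over the 8 comparisons, 0.253% to 21.3% of all genes were called. At day 14 Nadk2 rose by 0.40, 0.44 and 0.39 in groups 3, 4 and 5, with adjusted p of 0.0526, 0.000947 and 0.0268. Nadk, the cytosolic kinase, was higher in the fed rats by 0.47 at day 4 (adjusted p = 7.88e-05) and 0.39 at day 14 (adjusted p = 0.00769).

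Of 12 measured NAD consumers other than the sirtuins and Parp1, 7 were lower and 0 higher in group 5 at day 14, beside 19.8% of all genes called in either direction. Their median difference was −0.33 and that of all genes 0.00. In groups 3 and 4 of that day, 1 and 2 were lower. Parp14 and Parp9, which are known as genes of the interferon response, fell in group 5 by 0.87 (SE 0.19, adjusted p = 0.00987) and by 0.78 (SE 0.14, adjusted p = 0.00279). Parp10 and Parp12 fell by 0.45 and 0.43 (adjusted p = 0.0197 and 0.019). In the fed rats of day 14, Parp9 was higher by 0.78 (SE 0.14, adjusted p = 0.00556). Parp1 itself differed by 0.00 in group 5 at day 14 (interval −0.16 to 0.16).

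In group 5 at day 14, where 19.8% of all genes were called in either direction, some markers of other cells were called too. Of the 3 erythroid markers measured, 2 were lower, and their sum was 1224 to 3476 against 7365 to 10641 in group 2. Of 10 stellate cell and fibroblast markers, 1 was higher and 2 lower (1815 to 3147 against 2779 to 4614), and 1 of 7 Kupffer cell and macrophage markers was lower (7472 to 9891 against 7925 to 11550). Of the 2 B cell, 3 neutrophil and 8 T and NK cell markers, 1 each was lower. Of 4 adipocyte markers, 0 were called. The hepatocyte sum was 154191 to 164921 against 149740 to 159654 in group 2. The endothelial sum was 5190 to 6080 against 5172 to 5724, and the cholangiocyte sum 551 to 920 against 505 to 837. At the same day the erythroid sum was 3720 to 9570 in group 4, with 2 of 3 markers lower beside 12.8% of all genes called. In group 3 it was 7732 to 9818, with 0 of 3 called beside 6.54% of all genes. The part of these in the results on Nnmt, Nampt and the PARP genes was not tested.

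Of 11 genes of the clock, 4 were higher and 3 lower in group 3, 6 and 3 in group 4 and 7 and 3 in group 5 at day 14, where 6.54%, 12.8% and 19.8% of all genes were called. At day 4 limma called 0 in group 3, and 6 higher and 3 lower in both group 4 and group 5, beside 0.253%, 5.43% and 7.14% of all genes. Clock, whose protein binds the E-box with Bmal1, fell at day 14 by 1.15, 1.04 and 1.28 in groups 3, 4 and 5 (adjusted p = 0.000143, 0.000155 and 3.47e-06). Across the 49 rats, which share the groups and days, Nampt had a Pearson r of −0.87 with Npas2, −0.82 with Bmal1 and −0.81 with Clock. After the mean of each group and day was taken out, these were −0.40, −0.34 and −0.51. For Per3, Dbp, Nr1d2, Per1 and Per2, r with Nampt was 0.81, 0.80, 0.79, 0.77 and 0.74 over the rats. With the means taken out it was lower, at 0.28, 0.22, 0.22, 0.31 and 0.16. For Cry2, Nr1d1 and Cry1, r was 0.53, 0.50 and 0.395 over the rats. With the means taken out these had −0.13, 0.10 and 0.17.

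The genes whose pattern was most like a member were sought among 12586 genes above the dim level, by Pearson r over the 49 rats. For Nampt they were Ube2q2 (0.88), Sgms1 (0.87), Erlin1 (0.86), Edrf1 (0.86) and Ifrd2 (0.86). With the group and day means taken out these 5 had r of 0.58, 0.59, 0.41, 0.45 and 0.38. For Nnmt they were Aspg (0.89), Got1 (0.85), Gls2 (0.85), Slc25a15 (0.85) and Trit1 (0.85), and with the means taken out 0.69, 0.72, 0.74, 0.66 and 0.61. Got1, Gls2 and Aspg act on amino acids, and Slc25a15 carries ornithine into mitochondria. For Sirt3 they were Smim7, Lrp10, Tbc1d23, Zmym5 and Srrm1, from 0.69 down to 0.66. Nampt and Nnmt had an r of 0.66 over the rats and 0.27 with the means taken out. Sirt3 and Sirt5 had 0.23 over the rats and 0.61 with the means taken out.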

How the data were processed

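Affymetrix rat arrays measured the liver RNA of 49 rats. The authors checked the scans in Expression Console and normalized them by RMA in R 3.0.1 (affy 1.38.1), per the methods and the processing notes, and deposited intensities on a linear scale as whole numbers, from 8 to 33095, for 31042 probe sets. Quantile normalization makes the arrays alike, so a shift of all genes cannot be seen. The annotation gave 1 symbol for 20826 probe sets, several for 436 and none for 9780; the first kind was used, 1 probe set per gene.

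Tests were made on log2 values by limma 3.58.1 under R 4.3.3. Each comparison was fitted on its own groups, and the threshold of 0.1 for the adjusted p follows the false discovery rate that the authors set. The package EBarrays used by the authors is not installed here, so limma stood in for its model. The script was tested on simulated data. Means, SDs and figures were made in Python 3.11.15 (numpy 2.4.6, pandas 2.3.3, scipy 1.17.1, matplotlib 3.10.9). Intervals are 95% intervals of the limma fit.

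The genes and lists were chosen with earlier results of these data known. Values of every rat are given for members called against group 2, and up to 4 called genes per pathway list are named by the size of their difference. Clock, and the rats of Sirt7, were chosen after their values were seen. Alternatives were 1 fit of all group and day means, averaging probe sets by gene, a second quantile normalization, 50 added before log2, dim probe sets left out, array weights, robust empirical Bayes, a threshold of 0.05 and leaving out each rat. The other probe set of Nampt and Sirt4, and the trend without group 2, were added after seeing the data. The fits of the other probe sets, and their adjusted p, were made over the 20826 probe sets with 1 symbol.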

Additional observations from a re-analysis of the deposited data

Results flagged for a closer look

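Of 90 sets of rats (9 genes in 10 groups and days), 6 had 1 rat that stood far from the others of its group, all at day 14; chance alone gives this in about 5% of sets. Sirt3 in group 4 had a lowest rat at log2 8.42 with the next at 9.07. Sirt5 in group 1 had a highest rat at 9.32 (next 8.94), and Sirt6 in group 1 a highest rat at 7.80 (next 7.60). Sirt6 in group 5 had a lowest rat at 7.57 (next 7.67). Parp1 had a lowest rat at 9.65 in group 1 (next 9.88) and at 9.54 in group 2 (next 9.70). None of these genes was called in those groups at day 14.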

How the results depend on the processing

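No result changed direction among called values. Nampt stayed called under every alternative in group 1 at day 4 (−1.10 to −0.80) and in groups 3, 4 and 5 at day 14 (1.19 to 1.64, 1.51 to 1.97 and 1.52 to 1.97 without 1 rat), as did Nnmt in group 5 at day 14 (0.87 to 1.17) and Sirt2 in group 1 at day 4. Counts of called members moved as follows. In group 1 at day 4 (3) fits without 1 rat gave 2 to 4 (Sirt5 lost, Parp1 or Sirt3 gained), an adjusted p under 0.05 gave 2 (Sirt5 lost), and quantile normalization, the added 50 and array weights each gave 4 (with Parp1). In group 3 between the days (4) they fell to 3 after quantile normalization and in 6 fits without 1 rat (Sirt2 lost). In group 1 at day 14 (0) the fit of all means and the added 50 each gave 1 (Sirt2), and fits without 1 rat gave 0 to 1. In group 3 at day 14 (1) the mean of probe sets, quantile normalization, the added 50, the dim filter, array weights and robust empirical Bayes each gave 2 (with Sirt3), and fits without 1 rat 1 to 2. In group 4 at day 14 (1) the mean of probe sets gave 2 (with Sirt4) and quantile normalization 2 (with Sirt3), and fits without 1 rat 1 to 3. Between the days, the fit of all means gave 2 in group 4 (Nampt and Nnmt) and 2 in group 5 (Sirt2 and Nnmt), and fits without 1 rat gave 1 to 2 and 0 to 2. With the added 50, the call between the days in group 5 passed from Nnmt to Sirt2 (adjusted p = 0.0717 by limma). The interaction in group 3 (0) gave 0 to 1 without 1 rat (Nampt, without group 2 day 14 replicate 2 or group 3 day 14 replicate 3). The trend at day 14 (2) gave 1 without group 2 (Nnmt). The cause of these changes was not tested. Of single values, 22 of 2223 lost their call and 13 gained one without 1 rat, and 5 and 18 of 1028 under the other alternatives. No paired analysis was possible because every array is a different animal and the labels tie no animal of one group to one of another. Calls that 1 rat decided, beside those given with the results, were Parp1 in group 1 at day 4 (adjusted p = 0.0603 without group 2 day 4 replicate 2), Sirt3 in group 3 at day 14 (0.0652 without group 2 day 14 replicate 4), Sirt4 in group 4 at day 14 (0.0995 without group 2 day 14 replicate 3) and Sirt2 between the days in group 5 (0.0649 without group 5 day 4 replicate 4). Probe sets near the dim level, such as the other one of Sirt4, limit what can be seen.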

Other observations

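Some genes that act on ADP-ribose, on the methyl donor of Nnmt and on the sirtuins were called, in comparisons where 19.8% (group 5 at day 14), 12.8% (group 4) and 6.54% (group 3) of all genes were. Of 5 measured genes of ADP-ribose turnover, group 5 at day 14 had 2 higher and 1 lower than group 2. Nudt9, an ADP-ribose pyrophosphatase of mitochondria, rose by 0.28 in group 3, 0.28 in group 4 and 0.55 in group 5 (limma adjusted p = 0.0755, 0.0468 and 0.000969). Macrod1, which removes ADP-ribose from proteins, rose by 0.43 in group 4 and 0.39 in group 5 (adjusted p = 0.0265 and 0.0229), and Adprs, another such hydrolase, fell by 0.24 and 0.25 (adjusted p = 0.0572 and 0.0377).

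Of 4 measured genes around the methyl donor, Mat1a, which makes S-adenosylmethionine, rose by 0.40 and Ahcy, which clears its product, by 0.27 in group 5 at day 14 (adjusted p = 0.00506 and 0.0208). In the fed rats of that day, with 13.2% of all genes called, Ahcy, Mat1a and Gnmt, another user of the methyl donor, fell by 0.42, 0.28 and 0.37 (adjusted p = 0.00397, 0.0865 and 0.0415). Of 8 sirtuin regulators, group 5 at day 14 had 3 higher and 0 lower, beside the 19.8% of all genes called there. Ppargc1a, a coactivator and substrate of Sirt1, rose by 0.84 in group 4 (adjusted p = 0.0692) and 1.83 in group 5 (adjusted p = 0.00208), and fell by 0.95 in the fed rats (adjusted p = 0.0145). Foxo3 and Prkaa2, a subunit of AMP kinase, rose by 0.85 and 0.44 in group 5 (adjusted p = 0.0638 and 0.00973).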
